A study of Mus musculus with 10 samples.

Results

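The response of the cochlea to loud sound was described in B6.CAST mice, across all genes that the arrays measured. Of the 10 arrays of the series, the 4 arrays titled B6.CAST were compared, 2 after noise and 2 without noise, and the 6 arrays of 129X1/SvJ entered only as a source of the estimate of spread and as a second strain. B6.CAST is known as a line on a C57BL/6J background that carries CAST DNA around Cdh23, although the labels give the strain by name only and Cdh23 was not analysed here. Each array carried RNA of the dissected cochlea (per the labels, the membranous labyrinth) from a pool of 8 female mice aged 10 weeks. The noise groups were exposed for 1 h to noise of 105 dB SPL in an octave band of 10 kHz, and tissue was taken 6 h afterwards. The control groups were placed in the same chamber without noise, so handling and confinement were shared by both sides. Every probe set that is not a manufacturer's control was a member, 12422 of 12488 in all, and 8695 of them were bright enough to be tested. For descriptions by gene, the brightest tested probe set stood for each of 6506 genes.

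Loud sound strains hair cells, supporting cells and the ion-transporting lateral wall, and stressed cells answer within minutes to hours by switching on immediate early genes, whose transcription needs no newly made protein. Many of these genes encode transcription factors of the AP-1, Egr, Nr4a and C/EBP families, and others encode phosphatases and RNA decay factors that limit the response. Fibrocytes of the spiral ligament are known as a source of chemokines after noise, which draw blood monocytes into the cochlea over the following days. RNA of whole dissected cochlea mixes all of these cells, and in such bulk RNA fewer cells of a type and less RNA per cell cannot be told apart.

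The values are deposited signal intensities, and all changes are differences of log2(signal + 16) after quantile normalization, noise minus control, with the standard error from limma. The 4 arrays correlated at 0.942 to 0.976, and noise array 2 was closer to both control arrays (0.970 and 0.976) than to noise array 1 (0.957). Gapdh, whose 3′ over 5′ control signal is a sign of RNA integrity, gave a ratio of 6.94 on noise array 1 and 0.790 to 0.931 on the other B6.CAST arrays. Cochlear genes were bright on all 4 arrays. Coch, a matrix protein of the spiral ligament, read 13685 to 20801, Gjb2, the gap junction protein connexin 26, read 14755 to 24581, and Dct, a pigment enzyme of strial melanocytes, read 13147 to 15272. Hair cell genes were measured through Myo7a, Myo6, Calb2, Pvalb and Ocm, while Atoh1, Prox1, Hes5, Esrrb and Mitf were on the array but too dim to be tested. With 2 arrays a side, an exact two-sided permutation test of a single gene cannot go below 0.333, so tests rest on the spread shared by the 10 arrays unless the B6.CAST arrays are named as fitted alone.

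The clearest noise response of B6.CAST was a rise of the GTPase gene Gem, the AP-1 gene Fos and the monocyte chemokine gene Ccl2. Gem encodes a small GTPase that restrains calcium channels and the cytoskeleton. Its signal was 95.6 and 62.9 on control arrays 1 and 2, and 1518 and 731 on noise arrays 1 and 2. Both noise arrays lay far above both control arrays, and Gem rose by 3.46 ± 0.38 (adjusted p = 0.012, limma with Benjamini-Hochberg adjustment). Fos, which pairs with Jun proteins to form AP-1, read 65.8 and 49.3 in controls and 966 and 571 after noise, a rise of 3.33 ± 0.47 (adjusted p = 0.037 by limma). Ccl2, which attracts monocytes, read 6.0 and 32.1 in controls and 654 and 269 after noise, a rise of 3.66 ± 0.51 (adjusted p = 0.037 by limma). The control signals of Ccl2 are dim, so its change depends on the offset of 16. A further probe set, 104646_at, which is unnamed here, read 38.7 and 132 in controls and 1613 and 997 after noise and rose by 3.81 ± 0.51 (adjusted p = 0.037 by limma). In each of these 4, noise array 1, the array of high Gapdh ratio, was the higher noise array.

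These 4 were all the probe sets that passed the threshold of 0.05, which is 0.046% of those tested, and no probe set passed in the lower direction. At an unadjusted p under 0.05 there were 112 higher (1.29%) and 71 lower (0.817%), together 183. If nothing had changed, 435 would be expected, and dependence between probe sets makes such a count more variable. The noise and control arrays did not overlap for 15.8% of probe sets in the higher and 13.8% in the lower direction, so a lack of overlap alone is common with 2 arrays a side. Without noise array 1, none of the 4 passed (adjusted p 0.191 for Gem and 0.715 for the others, limma), although their changes were still 2.95 for Gem and Fos, 3.001 for Ccl2 and 3.48 for 104646_at. Without control array 1, none passed either. Leaving out each of the 10 arrays in turn gave 0 to 5 calls, and Gem lost its call in 3 of these 10 fits, 104646_at in 7, and Fos and Ccl2 in 8 each. From the 4 B6.CAST arrays alone, limma called none (smallest adjusted p 0.201, for Fos, with 213 probe sets at an unadjusted p under 0.05). The median within-group standard deviation was 0.21 in B6.CAST and 0.28 in 129X1/SvJ.

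**Figure D1:**
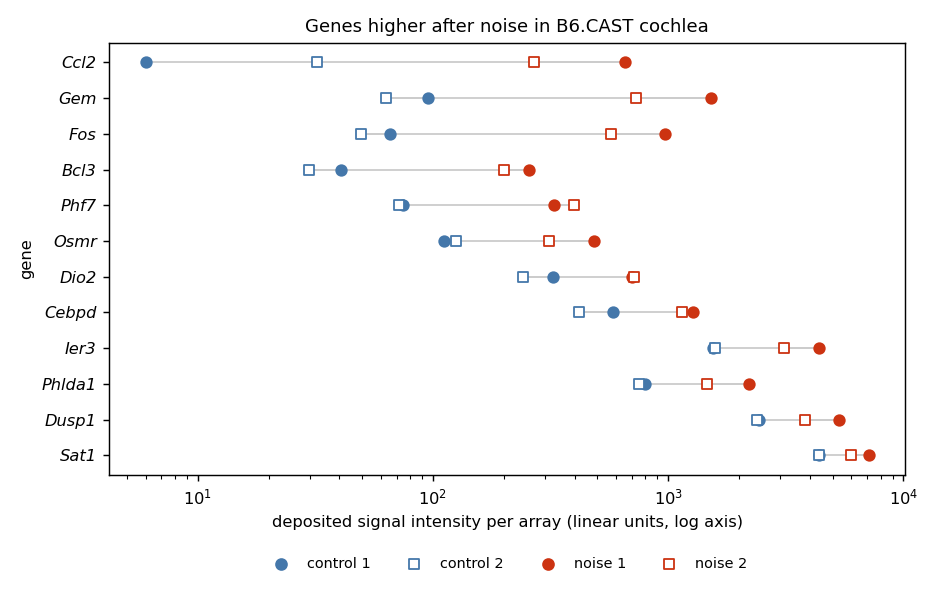
Deposited signal of the 12 genes that were higher after noise with no overlap and the smallest p, on a log axis, with 1 point per array (blue, control arrays 1 and 2; red, noise arrays 1 and 2). Both red points lie to the right of both blue points for every gene, with the widest gaps for Ccl2, Gem and Fos, whose noise signals start at 269, 731 and 571.

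The start regions of 3 of the higher genes are shown because the letters of a cyclic AMP response element, the DNA site that the factor CREB binds in many early genes, stood in each of them whole or in part. The sequences are from RefSeq (GRCm38.p6) and run from 250 bases before to 50 bases after the annotated start, 5′ to 3′ on the gene's strand. Capitals mark TGACGTCA, its shorter part TGACGT and the TATA box TATAAA. The Fos window is chr12:85473640-85473939 on the plus strand, the Dio2 window is chr12:90738989-90739288 on the minus strand and the Dusp1 window is chr17:26508423-26508722 on the minus strand.
Fos: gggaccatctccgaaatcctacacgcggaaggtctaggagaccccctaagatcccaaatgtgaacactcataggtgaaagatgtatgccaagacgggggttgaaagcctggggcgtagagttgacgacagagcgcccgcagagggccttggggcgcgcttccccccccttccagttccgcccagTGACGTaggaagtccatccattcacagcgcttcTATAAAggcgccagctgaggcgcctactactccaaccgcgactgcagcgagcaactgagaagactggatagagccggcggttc
Dio2: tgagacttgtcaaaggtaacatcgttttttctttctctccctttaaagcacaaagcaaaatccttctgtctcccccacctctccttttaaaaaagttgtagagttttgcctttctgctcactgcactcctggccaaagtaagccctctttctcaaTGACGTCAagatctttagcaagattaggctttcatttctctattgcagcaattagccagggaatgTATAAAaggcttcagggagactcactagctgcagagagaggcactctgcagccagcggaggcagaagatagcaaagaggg
Dusp1: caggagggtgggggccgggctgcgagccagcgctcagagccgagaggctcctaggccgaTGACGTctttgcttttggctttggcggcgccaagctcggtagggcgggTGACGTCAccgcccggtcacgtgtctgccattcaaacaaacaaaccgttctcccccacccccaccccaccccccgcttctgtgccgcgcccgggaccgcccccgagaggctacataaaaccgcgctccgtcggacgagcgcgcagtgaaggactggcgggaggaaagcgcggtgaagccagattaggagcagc
In Fos, TGACGT began at -66 and TATAAA at -33, counted from the start. In Dio2, TGACGTCA began at -95 and TATAAA at -30. In Dusp1, TGACGTCA began at -143, with a further TGACGT at -191. On either strand TGACGTCA occurs in 1.79% of 32851 such windows, and among the 12 higher genes 8 have a window, of which Dio2 and Dusp1 hold it. TGACGT, which lies inside the longer site, occurs in 7.51% of windows and was found in Dio2, Dusp1, Fos and Phf7 among the 8. Of the 12 lower genes 11 have a window, and among these 11 genes 0 held TGACGTCA and 1 held TGACGT. A gene was counted if any of its windows held the letters, whereas the percentages are shares of single windows. The AP-1 letters TGANTCA, present in 7.81% of windows, were in 1 of the 8 and 1 of the 11, and TATAAA, present in 13.6%, was in 2 of the 8 and 5 of the 11. A form of the NF-kappaB site and the CArG box bound by serum response factor, each in 1.63% of windows, were in 0 of either group. A match is a description of the letters only. Ccl2, Gem, Cebpd and Phlda1 have no window in the table.

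Beside Gem, Fos and Ccl2, the 12 higher genes with no overlap and the smallest p held 9 genes that did not pass the test. Phf7, a chromatin reader known from the testis, read 74.4 and 71.6 in controls and 327 and 398 after noise (2.07 ± 0.33, adjusted p = 0.089 by limma). A second probe set of Phf7 read 120 and 133 in controls and 159 and 147 after noise, so that it was the brighter in controls, and it differed by 0.25 ± 0.29 with overlapping groups after normalization. The first probe set stands for the gene by its mean over all 10 arrays, noise arrays included. Ier3, an early response gene tied to cell survival, read 1545 and 1578 in controls and 4378 and 3121 after noise (1.21 ± 0.20, adjusted p = 0.11 by limma). Dio2, the deiodinase that makes active thyroid hormone, read 323 and 242 against 703 and 716 (1.28 ± 0.21, adjusted p = 0.11 by limma). Its noise arrays were nearly equal, unlike those of Fos, Gem and Ccl2. Dusp1, a phosphatase that switches off MAP kinases, read 2435 and 2387 against 5323 and 3822 (0.89 ± 0.17). Cebpd, a C/EBP transcription factor of the acute phase response, read 583 and 416 against 1279 and 1149 (1.25 ± 0.24).

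Phlda1, a gene of the apoptosis and growth factor response, read 795 and 752 in controls and 2216 and 1470 after noise (1.19 ± 0.25). Sat1, the enzyme that starts polyamine breakdown, was bright on all arrays, at 4387 and 4398 in controls and 7147 and 6005 after noise (0.58 ± 0.13). Osmr, the receptor for oncostatin M, read 112 and 126 against 486 and 310 (1.57 ± 0.37). Bcl3, a nuclear partner of NF-kappaB, read 40.5 and 29.7 against 255 and 200 (2.23 ± 0.52). From Dusp1 to Bcl3 the adjusted p-values by limma ran from 0.29 to 0.68. Of the 9 genes, noise array 1 exceeded noise array 2 for all except Phf7 and Dio2.

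The tested early transcription factor genes stood higher after noise. All 19 tested members of this list were higher, beside 51.1% of all genes, and 13 of 19 did not overlap, beside 15.6% of all genes. This list and those below were chosen with earlier results of these data known. Such shares therefore describe the members and are no test of a group. Their median change was 0.49, beside 0.01 for all genes, and Fos was the 1 member past the threshold. Atf3, a stress-activated factor that pairs with AP-1, read 224 and 213 in controls and 874 and 429 after noise (1.39 ± 0.41). Its second probe set differed by 0.46 ± 0.40. Nr4a1, an orphan nuclear receptor of the early response, read 213 and 122 against 510 and 340 (1.26 ± 0.40). Egr1, a zinc finger factor, read 186 and 212 against 591 and 322 (1.08 ± 0.50), and it is named here after its values were seen, as are Junb, Jun and Fosb. The other AP-1 members were higher by less, with Junb at 0.91 ± 0.60, Jun at 0.58 ± 0.32 and Fosb at 0.40 ± 0.65. Taken against the control mean, the median of the list was 0.72 on noise array 1 and 0.33 on noise array 2, and 18 of 19 members were still higher without noise array 1. The exception was Fosb, at -0.04.

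Genes that limit this response stood higher mainly on noise array 1. Of 14 tested feedback phosphatases, SOCS proteins and RNA decay factors, 12 were higher and 2 lower, with a median of 0.34. Each of the 14 read higher on noise array 1 than on noise array 2, and the median was 0.08 without noise array 1, the array of high Gapdh ratio. The part of RNA integrity in this was not tested. Socs3, which blocks STAT3 signals from IL-6 family receptors, read 99.4 and 152 in controls and 384 and 303 after noise (1.35 ± 0.39), and its second probe set differed by 2.32 ± 0.50. Dusp6, a phosphatase of ERK kinases, read 999 and 1488 against 2369 and 1548 (0.63 ± 0.28), so that noise array 2 barely exceeded control array 2. Rgs16, which shuts off G protein signals, read 182 and 240 against 399 and 283 (0.66 ± 0.27). None of these passed the test.

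Stress-induced regulators of the Gadd45, C/EBP and related families had similar medians on both noise arrays. Of 18 tested, 17 were higher, beside 51.1% of all genes, 14 of them without overlap, beside 15.6% of all genes, and the median was 0.39 with both noise arrays, 0.40 without noise array 1 and 0.45 without noise array 2. Gem, described above, was the 1 member past the threshold. Gadd45a, a DNA damage and stress protein, read 298 and 289 in controls and 490 and 476 after noise (0.69 ± 0.18). Gadd45b, its relative that responds to cytokines, read 239 and 202 against 615 and 388 (1.08 ± 0.28), and its second probe set differed by 0.85 ± 0.31. Id2, an inhibitor of differentiation factors, was the 1 lower member, at -0.15.

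Chemokine genes were led by those that attract monocytes and neutrophils. Of 14 tested, 11 were higher and 3 lower, 9 of the higher without overlap, with a median of 0.41, beside 51.1% higher and 15.6% without overlap among all genes. Ccl7, a neighbour and relative of Ccl2, read 13 and 7.5 in controls and 318 and 63.0 after noise (2.59 ± 0.64, adjusted p = 0.94 by limma). Noise array 1 stood far above noise array 2 for this gene. Cxcl1, which attracts neutrophils, read 37.6 and 46.6 against 200 and 122 (1.54 ± 0.50), and its second probe set differed by 1.21 ± 0.58. Ccl12, another ligand of the monocyte receptor, read 38.7 and 41.6 against 106 and 77.4 (0.91 ± 0.65). The median of the list was 0.52 on noise array 1 and 0.34 on noise array 2. Of the matching receptors, Ccr2, which binds Ccl2, Ccl7 and Ccl12, was dim and lower, at 68.6 and 20.3 against 5.7 and 11.4 (-1.23 ± 0.47). Cxcr4, the receptor for Cxcl12, read 126 and 87.2 against 52.3 and 51.4 (-0.81 ± 0.35). Both receptors are also carried by blood and marrow cells, whose markers were high on control array 1, as described further below, and the part of those cells in these values was not tested.

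The cytokines themselves were mostly too dim to test. Of 31 listed, 27 were on the array and 9 were tested, and Il1a, Il1b, Il6, Tnf and Il10 lay below the filter on dim probe sets. Among receptors and STAT3 partners, 12 of 17 were higher (all genes 51.1%), 7 of them without overlap (all genes 15.6%), with a median of 0.23. Osmr led them, and Stat3, the transcription factor downstream of IL-6 family receptors, read 671 and 821 in controls and 1275 and 1247 after noise (0.74 ± 0.19). Its second probe set differed by 1.00 ± 0.23. Il6ra, the IL-6 receptor, read 183 and 198 against 297 and 315 (0.66 ± 0.30), while Il6st, the shared signalling chain, differed by 0.12 ± 0.22. Tnfrsf1a, the main TNF receptor, read 499 and 680 against 1068 and 770 (0.62 ± 0.31). Without noise array 1 the median of this list was 0.08.

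Of 15 NF-kappaB subunits and regulators, 13 were higher (all genes 51.1%), 8 without overlap (all genes 15.6%), and the median was 0.30. None passed the test. Bcl3 led, followed by Cd14, a receptor for bacterial lipid, at 435 and 446 in controls and 657 and 877 after noise (0.78 ± 0.24). Nfkbia, the inhibitor that NF-kappaB itself switches on, read 1945 and 1764 against 2545 and 2377 (0.41 ± 0.25). Nfkb2, a subunit precursor, read 124 and 165 against 204 and 190 (0.43 ± 0.29). In this list noise array 2 alone gave 0.29, and noise array 1 alone 0.43.

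Of 7 adhesion genes tested, Icam1, the endothelial ligand of leukocyte integrins, differed most, at 48.9 and 44.6 in controls against 170 and 101 after noise (1.20 ± 0.44). Sele and Selp, the endothelial selectins, were too dim to test. Of 14 acute phase and inflammatory effectors, 12 were higher and 2 lower, with a median of 0.33. Plat, tissue plasminogen activator, read 1244 and 1446 against 2223 and 1971 (0.65 ± 0.16), and Cp, the copper carrier ceruloplasmin, read 4026 and 4404 against 5854 and 4992 (0.36 ± 0.16). The 2 lower members were Lcn2 and Hp, both also made by developing neutrophils, at -1.76 ± 0.73 and -0.63 ± 0.57. A second probe set of Lcn2 went the other way, at 0.32 ± 0.29, and its groups did not overlap.

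**Figure D2:**
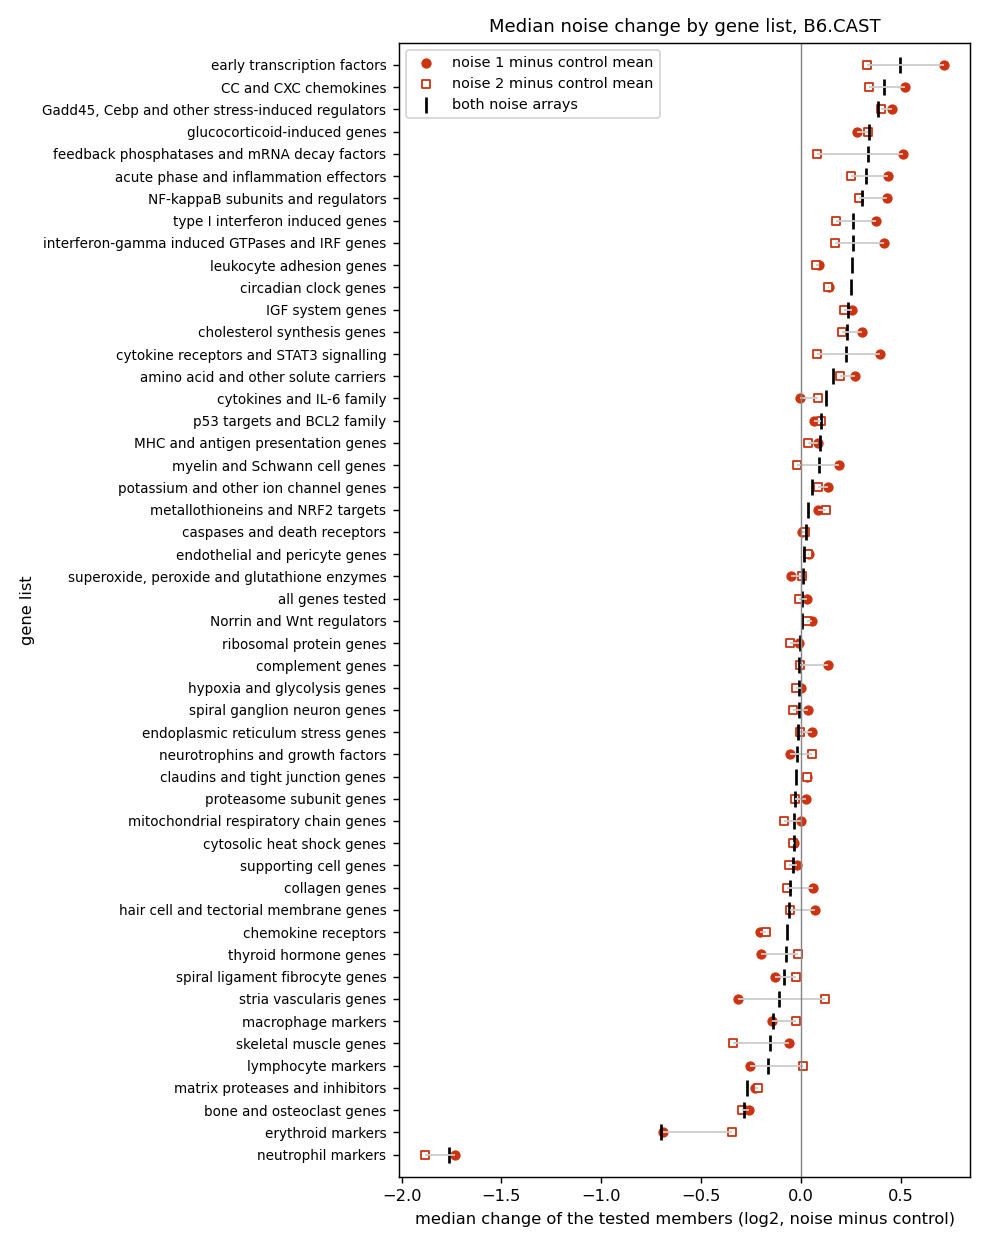
Median change of the tested members of each gene list, on the log2 scale, for noise array 1 (filled circle), noise array 2 (open square) and both (black bar), each against the mean of the control arrays. Early transcription factors (0.72 and 0.33) and feedback genes (0.51 and 0.08) differ between the noise arrays, and neutrophil and erythroid markers lie lowest.

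Protein folding and oxidant defence genes showed no common shift. Of 19 cytosolic heat shock genes, 8 were higher and 11 lower, with a median of -0.03. Hspa1a, the inducible Hsp70, read 814 and 905 in controls and 1218 and 820 after noise (0.20 ± 0.19). Dnajb1, an Hsp40 partner, was lower on both noise arrays, at 867 and 836 against 711 and 602 (-0.38 ± 0.18). Of 19 endoplasmic reticulum stress genes, 9 were higher and 10 lower (median -0.01), with Ddit3, the factor CHOP, at 513 and 642 against 794 and 745 (0.41 ± 0.19) and Atf4 at 2939 and 2896 against 3561 and 3242 (0.23 ± 0.12). None of the members of either list passed the test.

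Mt1 and Mt2 encode metallothioneins, small metal-binding proteins, and neither passed the test. Mt2 read 4961 and 4844 in controls and 12061 and 8151 after noise (0.99 ± 0.39), and Mt1 read 2982 and 3221 against 5024 and 4267 (0.57 ± 0.42). Srxn1, which repairs oxidized peroxiredoxins, read 415 and 439 against 753 and 601 (0.64 ± 0.29), although its second probe set differed by 0.14 ± 0.26. Of the 21 metallothioneins and targets of the oxidant sensor NRF2, 12 were higher and 9 lower, with a median of 0.04. Of 17 superoxide, peroxide and glutathione enzymes, 9 were higher and 8 lower, and their changes ran from -0.30 to 0.28. Sod1, the cytosolic superoxide dismutase, read 6213 and 6036 against 6966 and 6193.

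Death and hypoxia genes were also balanced. Of 17 p53 targets and BCL2 family members 10 were higher, of 12 caspases and death receptors 6, and of 24 hypoxia and glycolysis genes 11, with medians of 0.10, 0.03 and -0.01. Cdkn1a, the cell cycle inhibitor p21, read 1173 and 964 in controls and 1308 and 1963 after noise (0.59 ± 0.29), here with noise array 2 the higher. Bcl2l1, which encodes the survival protein Bcl-xL, read 1556 and 2510 against 3253 and 2279 (0.44 ± 0.35), so its groups overlapped. Ldha, lactate dehydrogenase, read 4760 and 5868 against 6435 and 6945 (0.29 ± 0.17).

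Genes that respond to glucocorticoids, the adrenal stress hormones, had a median above that of all genes on both noise arrays. Of 19 tested, 13 were higher (68.4%, beside 51.1% of all genes), 10 of them without overlap (all genes 15.6%), none passed the test, and the median was 0.34, with 0.34 for noise array 2 alone and 0.28 for noise array 1 alone. The leading members, Cebpd, Mt2 and Dusp1, belong to other stress lists as well. Fkbp5, a chaperone of the receptor that is a standard readout of the hormone, read 629 and 698 against 820 and 934 (0.40 ± 0.51), and Sgk1, a kinase, read 6067 and 4803 against 8018 and 6429 (0.38 ± 0.21). Both are named after their values were seen. Tsc22d3, or GILZ, another hormone target, read 20.6 and 92.6 against 19.8 and 93.0.

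Of 14 clock genes 8 were higher and 6 lower (median 0.25). Cry1, a repressor of the clock, read 522 and 443 against 659 and 678 (0.46 ± 0.19), and Bhlhe40, a repressor that also answers to stress, read 420 and 533 against 1004 and 633 (0.72 ± 0.33). Of 7 thyroid hormone genes 2 were higher and 5 lower (median -0.07). Dio2 was the 1 higher member without overlap (all genes 15.6%), and 2 were lower without overlap (all genes 14.4%). The receptor Thra read 1250 and 1908 against 1490 and 1532.

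Interferon-induced genes differed by small amounts, and none passed the test. Among all genes 51.1% were higher and 15.6% were higher without overlap. Of 16 genes induced by type I interferon, 12 were higher, 9 without overlap, with a median of 0.26, and of 15 induced by interferon-gamma, 13 were higher, 6 without overlap, with a median of 0.26. Ifit1, which binds foreign RNA, read 491 and 610 in controls and 1359 and 687 after noise (0.80 ± 0.35), and Ifit2, its relative, read 123 and 129 against 310 and 195 (0.88 ± 0.43). Irf1, a factor shared by both pathways, read 238 and 296 against 444 and 352 (0.56 ± 0.28). Gbp2, a GTPase that attacks pathogen vacuoles, read 308 and 299 against 697 and 316, so that its change of 0.58 ± 0.40 came from noise array 1 and was -0.01 without it. The list medians without noise array 1 were 0.18 for type I and 0.17 for interferon-gamma. Of 19 genes of antigen presentation 11 were higher (median 0.09) and of 12 complement genes 6 (median -0.01). C1ra, a protease that starts the complement cascade, read 181 and 187 against 307 and 305 (0.69 ± 0.21), but its second probe set differed by -0.02 ± 0.24.

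Neutrophil granule genes were among those with the lowest values, and nearly all of them were highest on control array 1. Of 15 neutrophil markers tested, 14 were lower and 11 did not overlap, beside 14.4% of all genes, with a median of -1.76. Their summed signal was 23809 and 7908 on control arrays 1 and 2 and 4184 and 4485 on noise arrays 1 and 2. Mpo, myeloperoxidase, read 786 and 183 in controls and 38.0 and 58.7 after noise (-2.69 ± 0.86), and its second probe set differed by -0.10 ± 0.39. S100a9, a calcium-binding alarm protein of neutrophils, read 5170 and 1259 against 443 and 430 (-2.49 ± 0.81). Camp, the antimicrobial peptide cathelicidin, read 3933 and 1679 against 636 and 684 (-1.92 ± 0.65), and Chil3, a chitinase-like protein, read 909 and 218 against 113 and 102 (-1.92 ± 0.65). Each of these 4 was highest on control array 1, yet control array 2 also exceeded both noise arrays. Without control array 1 the median of the list was -0.92. Csf3r, the receptor of the neutrophil growth factor, was the exception at 411 and 474 against 541 and 418. None of the neutrophil genes passed the test (adjusted p = 1.00 by limma for Mpo), and no marker was at 0.

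**Figure D3:**
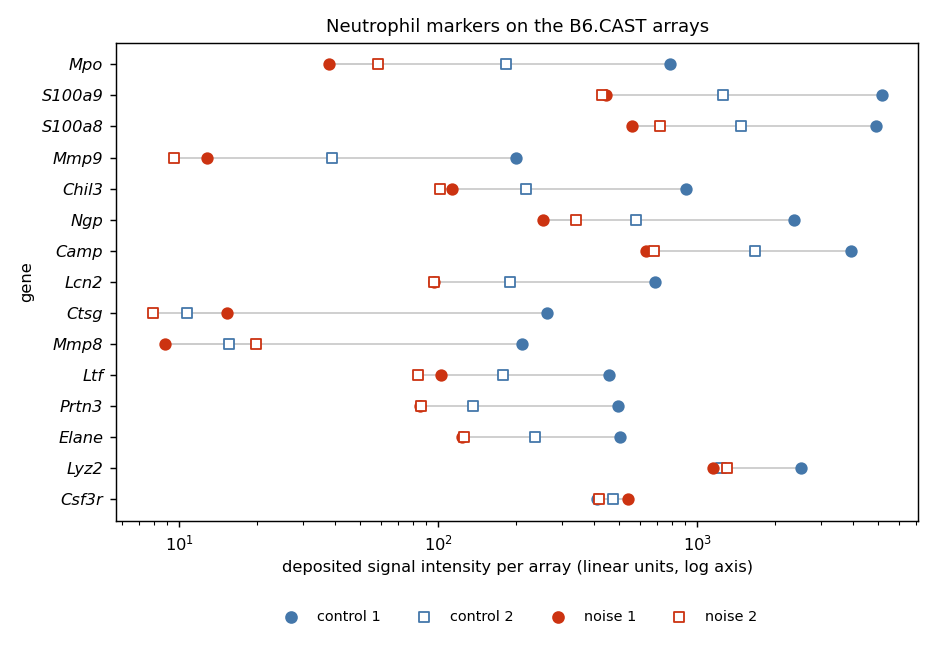
Deposited signal of the 15 tested neutrophil markers on the 4 B6.CAST arrays, on a log axis, with 1 point per array (blue, control; red, noise). Control array 1 is the highest for 14 of the 15 markers, and the control arrays read 5170 and 1259 for S100a9 where the noise arrays read 443 and 430.

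Red cell and bone genes shared the high reading on control array 1. Of 12 erythroid markers 9 were lower, with a median of -0.70, and their summed signal was 39387 on control array 1 and 22793 to 26517 on the other arrays. Hba-a1, alpha globin, read 17459 and 8249 in controls and 5719 and 8198 after noise (-0.78 ± 0.39). Without control array 1 the erythroid median was -0.07 and that of the 12 bone and osteoclast genes moved from -0.28 to 0.12. The 3 smooth muscle genes Acta2, Myh11 and Tagln had the same shape, for example Acta2 at 1051 and 264 in controls and 127 and 203 after noise (-1.61 ± 0.57). They belong to a list of 18 tested endothelial and pericyte genes that did not share it. Of the 18, 11 were higher and 7 lower (median 0.02), and 9 read higher on control array 1 than on control array 2. Skeletal muscle genes were instead high on control array 2, with 17 of 18 members above control array 1, and their median moved from -0.15 to -0.77 without control array 1 and to 0.26 without control array 2. The part of these differing tissue traces in the other lower values was not tested.

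Macrophage markers did not shift together. Of 17 tested, 6 were higher and 11 lower (median -0.14), with C1qa at 941 and 891 in controls and 760 and 900 after noise and Csf1r, the growth factor receptor of macrophages, at 372 and 505 against 561 and 459. Cx3cr1, a receptor of resident macrophages, read 195 and 180 against 174 and 255. Of 14 lymphocyte markers 5 were higher and 9 lower (median -0.16).

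Outside the blood genes, the lower genes with no overlap and the smallest p were led by Ndp. Ndp encodes norrin, a secreted ligand of the Frizzled 4 receptor that maintains blood vessels of the ear and eye. It read 805 and 679 in controls and 297 and 432 after noise (-0.996 ± 0.21, adjusted p = 0.46 by limma). Both noise arrays lay well below both controls, and control arrays 1 and 2 were close. Its receptor Fzd4 read 305 and 287 against 239 and 266 (-0.21 ± 0.60), and the co-receptor Lrp5 was too dim to test. Over the whole list of 23 norrin and Wnt pathway genes, 13 were higher and 10 lower, with a median of 0.01.

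Fah, the last enzyme of tyrosine breakdown, read 834 and 878 in controls and 454 and 621 after noise (-0.65 ± 0.20). Gng11, a G protein gamma subunit of endothelial cells, read 948 and 881 against 547 and 653 (-0.59 ± 0.20). Tmem37, a subunit-like partner of calcium channels, read 3636 and 4456 against 3047 and 3005 (-0.42 ± 0.14). Cnpy2, an endoplasmic reticulum protein, read 2495 and 2558 against 1437 and 1996 (-0.55 ± 0.19). Ptpn18, a tyrosine phosphatase, read 227 and 153 against 59.9 and 128 (-0.94 ± 0.32). Fabp6, a bile acid carrier, and Hivep3, a zinc finger factor, were dim, at 73.5 and 62.6 against 23 and 16.9 (-1.24 ± 0.36) and at 76.3 and 47.9 against 11.8 and 22.3 (-1.26 ± 0.43). For Fah, Gng11, Cnpy2, Ptpn18, Hivep3 and Ndp, noise array 1 was the lower noise array. All of these had an adjusted p of 1.00 by limma except Ndp.

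**Figure D4:**
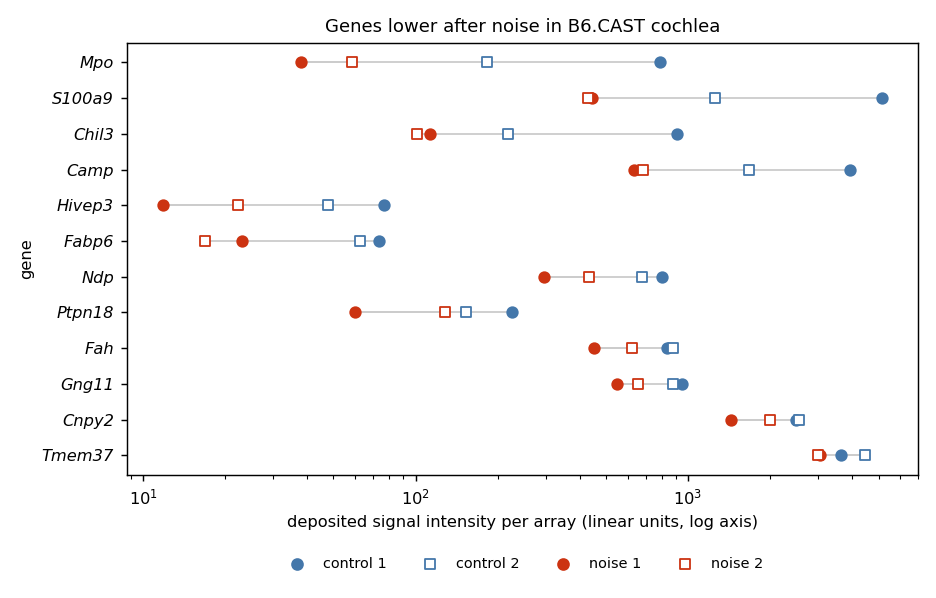
Deposited signal of the 12 genes that were lower after noise with no overlap and the smallest p, on a log axis, with 1 point per array (blue, control; red, noise). Mpo, S100a9, Camp and Chil3 show a wide gap between the control arrays, whereas the controls of Ndp (805 and 679) and Fah (834 and 878) lie close together.

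Genes of the cochlea's own cell types had small median changes. With all 4 arrays most hair cell, supporting cell and spiral ligament members were lower, but this direction depended on which arrays were used. Among all genes 51.1% were higher. Of 14 hair cell and tectorial membrane genes 4 were higher and 10 lower, with a median of -0.06 and changes from -0.37 to 0.20. Without noise array 2, 9 of these were higher and 5 lower. Ocm, oncomodulin of outer hair cells, read 3070 and 3725 in controls and 3727 and 3229 after noise, and Myo6, an actin motor of hair cells, read 2582 and 2653 against 2157 and 2504. Of 14 supporting cell genes 10 were lower (median -0.04), among them Fabp7, a lipid carrier of glial-like cells, at 407 and 294 against 212 and 181 (-0.76 ± 0.27). Without noise array 2, 7 supporting cell genes were higher and 7 lower. Gjb6, connexin 30, read 6215 and 5016 against 4349 and 4347 (-0.37 ± 0.30), and its second probe set differed by -0.68 ± 0.30. Gjb2, its partner in the same junctions, read 14755 and 24581 against 17624 and 19232.

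Of 14 genes of the stria vascularis, which makes the endocochlear potential, 6 were higher and 8 lower (median -0.11). The median was 0.12 with noise array 2 alone and -0.31 with noise array 1 alone. Kit, a receptor of melanocytes, read 554 and 502 in controls and 332 and 410 after noise (-0.49 ± 0.21). Tyr, tyrosinase, read 183 and 131 against 52.1 and 186, so that its change of -0.50 turned to 0.17 without noise array 1. Kcnq1, the channel that secretes potassium into endolymph, read 512 and 874 against 743 and 741.

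Of 17 spiral ligament genes 4 were higher and 12 lower (median -0.09). Without control array 1, 10 were higher and 6 lower. Kl, the ion transport regulator klotho, read 909 and 753 in controls and 444 and 546 after noise (-0.72 ± 0.25), with no overlap. Ptgds, a prostaglandin synthase, read 38727 and 43640 against 42770 and 44761. Of 19 genes of spiral ganglion neurons 9 were higher and 10 lower (median -0.01), and of 12 genes of myelin and Schwann cells 8 were higher (median 0.09). Snap25, a synaptic vesicle fusion protein, read 8743 and 8009 against 10502 and 7409, and Mbp, myelin basic protein, read 4154 and 3111 against 3726 and 3179.

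Among channels, Kcnn4, a calcium-gated potassium channel, read 247 and 255 in controls and 523 and 322 after noise (0.67 ± 0.47), and Kcna1, a potassium channel of axons, read 588 and 511 against 1010 and 704 (0.58 ± 0.45). Of the 12 channel genes tested 6 were higher. Of 16 claudin and junction genes 7 were higher, with Cldn4 at 189 and 200 against 267 and 424 (0.77 ± 0.41) and Cldn5, the claudin of endothelium, at 1695 and 1632 against 1103 and 1427 (-0.41 ± 0.19). Of 16 growth factor and receptor genes 7 were higher, with Fgfr1 at 1483 and 2147 against 2884 and 2388 (0.54 ± 0.20). Irs2, an adaptor of insulin and IGF receptors, read 173 and 172 in controls and 575 and 278 after noise (1.12 ± 0.34). Of 11 IGF system genes 7 were higher, all without overlap (all genes 15.6%), and 4 were lower, 2 of them without overlap (all genes 14.4%), with a median of 0.24. Of 25 collagen genes 10 were higher (median -0.06), with Col5a2, a fibril collagen, at 216 and 187 against 110 and 107 (-0.78 ± 0.31).

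Metabolic and housekeeping genes served as a comparison. Among all genes 51.1% were higher and 15.6% were higher without overlap. Of 16 cholesterol synthesis genes 14 were higher, 7 without overlap, with a median of 0.23, for example Sqle at 987 and 1026 in controls and 1349 and 1225 after noise (0.35 ± 0.16). Of 19 solute carriers 14 were higher, 6 without overlap (median 0.16), with Slc7a5, an amino acid exchanger, at 1075 and 1652 against 2952 and 1543 (0.66 ± 0.34). Ribosomal protein, respiratory chain and proteasome genes had medians of -0.01, -0.03 and -0.03, with 11 of 26, 23 of 62 and 14 of 35 members higher. None of the genes in these 5 lists passed the test.

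By size, 39 genes were higher and 57 lower by over 1 on the log2 scale, most of them without passing the test. Of the 39, 38 did not overlap, 32 read higher on noise array 1 than on noise array 2, and 23 were also over 1 higher on noise array 2 alone. Of the 57 lower genes, 44 did not overlap, 45 read higher on control array 1 than on control array 2, and 18 belong to the lists of blood cells and bone. The 18 are list members only, and other lower genes shared the high reading on control array 1. Hemgn, for example, read 270 and 31.7 in controls against 26.1 and 30.5 after noise, and Plac8 read 1362 and 325 against 235 and 223. Only 22 of the 57 were over 1 higher on control array 2 alone than after noise. Some of the falls came with a low reading on noise array 1, the array of high Gapdh ratio. Vamp1, the largest fall, read 719 and 2422 in controls and 8.3 and 1482 after noise, and Usp22 read 297 and 393 against 38.9 and 421. For others, such as S100a9, the noise arrays were close. The part of RNA integrity in these falls was not tested. Among all genes 15.6% were higher and 14.4% lower without overlap. A choice by size of change itself favours a lack of overlap, so these counts of overlap are no support for the changes.

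The noise response was set beside that of 129X1/SvJ, an inbred strain known for resistance to noise, which was exposed in the same way and has its own 3 control and 3 noise arrays. The question was whether the change in B6.CAST differs from that in the other strain, and it was tested as the difference of the changes. No probe set passed (0 of 8695 by limma, smallest adjusted p 0.52), and 258 (2.97%) had an unadjusted p under 0.05. Across genes the changes of the strains correlated at 0.18, a description over genes that are not independent. All 12 higher genes of B6.CAST were also higher in 129X1/SvJ, 11 of them without overlap, where 5.95% of all genes did so. The p that chose these 12 also uses the spread of the 129X1/SvJ arrays. That choice can favour a lack of overlap there, so the shares are not an even comparison. Gem rose by 3.46 here and by 3.56 in 129X1/SvJ, with a difference of -0.10 ± 0.49. Ccl2 rose by 3.66 and 4.08, with a difference of -0.42 ± 0.65. Fos rose by 3.33 and 4.95, with a difference of -1.62 ± 0.60 (unadjusted p = 0.021, adjusted p = 0.997 by limma).

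Of 40 probe sets that passed the threshold as higher in 129X1/SvJ, 39 were higher in B6.CAST and 37 did not overlap there. Of all probe sets tested, 51.1% were higher in B6.CAST and 15.8% were higher without overlap. Their median change was 0.82 in B6.CAST beside 1.82 in 129X1/SvJ, and 39 were smaller in B6.CAST, a comparison that favours 129X1/SvJ because the probe sets were chosen there. The gaps with the smallest p were those of Csn3, kappa casein, at 0.28 ± 0.33 in B6.CAST and 2.76 ± 0.27 in 129X1/SvJ (difference -2.48 ± 0.43, adjusted p = 0.52 by limma), and Gadd45b, at 1.08 ± 0.28 and 3.14 ± 0.23 (difference -2.06 ± 0.36, adjusted p = 0.52 by limma). In B6.CAST, Csn3 was dim, at 32.6 and 30.8 in controls and 37.5 and 48.8 after noise. Hspa1a differed by 0.20 ± 0.19 in B6.CAST and by 1.42 ± 0.15 in the other strain (difference -1.21 ± 0.24, adjusted p = 0.997 by limma). Phf7 went the other way in size, with 2.07 in B6.CAST and 0.82 in 129X1/SvJ (difference 1.25 ± 0.42, adjusted p = 0.997 by limma). Its second probe set was at 0.25 in B6.CAST and -0.40 in 129X1/SvJ, with overlapping groups in both.

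Of the 12 lower genes of B6.CAST, 7 were lower and 5 higher in 129X1/SvJ, where 56.9% of all genes were lower. The 5 were Mpo, S100a9, Camp, Chil3 and Hivep3, and the first 4 of them are neutrophil genes, whose list median was -1.76 here and 0.76 in 129X1/SvJ. Ndp was lower in both strains (-0.996 ± 0.21 and -0.56 ± 0.17), as were Fah (-0.65 in each), Gng11 (-0.59 and -0.48) and Tmem37 (-0.42 and -0.56). Kl, at -0.72 ± 0.25 in B6.CAST, was at -1.23 ± 0.20 in 129X1/SvJ, where it passed the threshold, and the difference of 0.51 ± 0.32 did not pass. A difference that misses the threshold does not show that the strains act alike, and its standard error among the 12 higher genes ran from 0.17 (Sat1) to 0.67 (Bcl3).

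**Figure D5:**
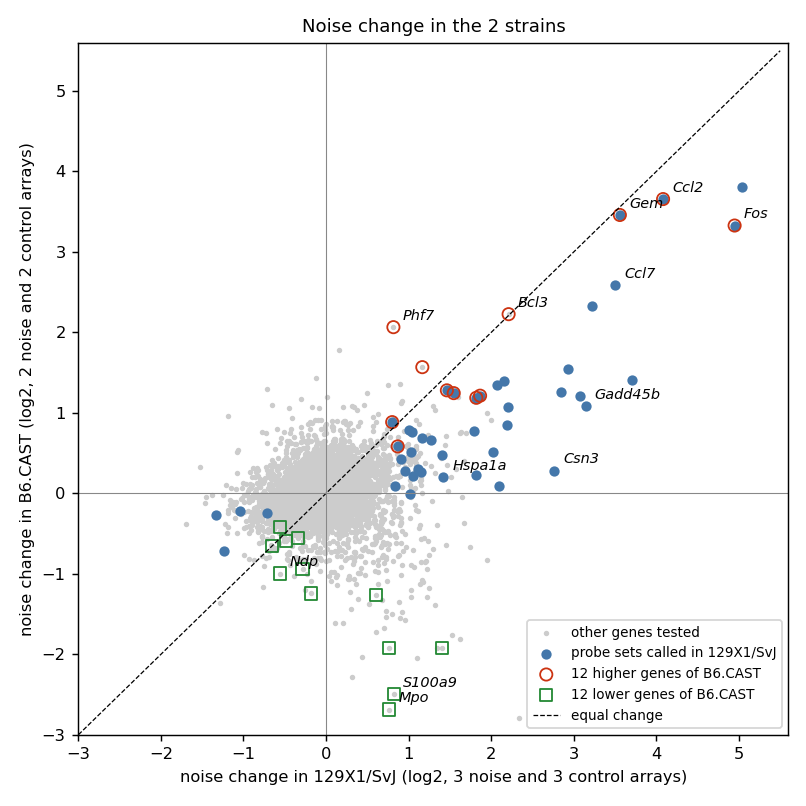
Change after noise of each gene in 129X1/SvJ (horizontal, 3 noise and 3 control arrays) and B6.CAST (vertical, 2 and 2 arrays), on the log2 scale, with the dashed line at equal change. Blue points mark probe sets that passed in 129X1/SvJ, most of which lie below the line, and the open squares of Mpo, S100a9, Camp and Chil3 lie at the lower right, lower in B6.CAST and higher in 129X1/SvJ.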

How the data were processed

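Cochlear RNA was measured on 10 one-colour Affymetrix arrays. Linear signal intensities per probe set were deposited by the authors, and the scaling software is not stated in the labels. After 2% of values were trimmed at each end, every array had a mean of about 500. Values were taken as log2(intensity + 16) and quantile normalized, and the dimmest 30% of probe sets and the 66 control probe sets were left out. Group means (4) were fitted to all 10 arrays in limma 3.58.1 (R 4.3.3) with a variance trend and Benjamini-Hochberg adjustment over 8695 probe sets (threshold 0.05). The dimmest probe set tested had a mean signal of 42.9. The filter used means over all 10 arrays, noise arrays included, so a probe set dim in controls can pass through its noise signals. The number of arrays limits the precision. The p-values rest on the spread between arrays of both strains, each a pool of mice, which also holds differences in RNA integrity and tissue traces.

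GEO's platform annotation gave a single symbol for 10833 of the 12422 probe sets, several for 396 and none for 1193, and 10817 were matched to RefSeq. Named genes are those past the threshold, the 12 higher and 12 lower with the smallest p among genes without overlap, and up to 4 members of each of 49 lists with the smallest p. Other members are named as markers or after their values were seen. The members and lists were chosen with earlier results of these data known. Lists are described by counts and medians without a test. The analysis was tested on simulated data. The replicate numbers did not pair the B6.CAST arrays (correlation of deviations -0.17). Other pseudocounts, filters, scalings and weights, a replicate block and the omission of each array were tried as alternatives.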

Additional observations from a re-analysis of the deposited data

Results flagged for a closer look

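For 5 of the named genes, every noise array lay, after normalization, on 1 side of every control array in B6.CAST and on the opposite side in 129X1/SvJ. Among all genes tested, 15.6% were higher and 14.4% lower without overlap in B6.CAST, and 5.95% and 10.5% in 129X1/SvJ. With such shares some opposite cases arise without a strain difference, and the 5 are given as a description only. The difference of the changes (B6.CAST minus 129X1/SvJ) was -1.86 ± 0.56 for Hivep3, 1.24 ± 0.27 for C1ra, 0.36 ± 0.14 for Car2, which encodes a carbonic anhydrase of red cells and epithelia, -1.56 ± 0.61 for Cybb, the oxidase subunit of phagocytes, and 0.84 ± 0.35 for Lss, an enzyme of cholesterol synthesis. None of these differences passed the test across all probe sets (adjusted p = 0.997 for each by limma). The second probe set of C1ra did not follow the first.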

How the results depend on the processing

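With 2 arrays a side, the number of calls depended on how the spread was estimated. Against 4 calls, limma made 2 with a pseudocount of 1 and 2 with 64, 1 with no filter on dim probe sets, 0 without the variance trend, 7 with array weights, 7 with weights by strain, 0 from the B6.CAST arrays alone and 0 without the 2 arrays of high Gapdh ratio (chosen after seeing the data, with 83 probe sets at an unadjusted p under 0.05). Leaving out each array in turn gave 0 to 5. The replicate numbers did not pair the arrays, and with the replicate number as a block there were 2 calls, or 0 from the B6.CAST arrays alone. The crossed pairing, also chosen after seeing the data, gave 4. The difference between strains had 0 calls under every alternative run.

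Of 2428 values of named genes under the alternatives, 2360 kept their direction and side of the threshold, 51 lost and 9 gained a call, and 8 turned sign. The 8 were those of Fosb, Gbp2, Hspa1a and Tyr, at -0.0429, -0.00715, -0.0623 and 0.168 both without noise array 1 and without the 2 arrays of high Gapdh ratio. With each array left out they ranged from -0.0429 to 0.848 for Fosb, -0.00715 to 1.16 for Gbp2, -0.0623 to 0.469 for Hspa1a and -1.17 to 0.168 for Tyr. The cause of these changes was not tested.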
